A study of Sus scrofa with 2 samples.

Results

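The genes described here are 5 heat shock chaperone or co-chaperone genes, DNAJB1, HSPH1, HSPA8, HSPA6 and HSPB1, and CRYAB, which encodes the small heat shock protein alpha-B-crystallin. They are 6 of the 21301 features of the deposited matrices and were taken by their symbols. All 6 symbols were present, with the identifiers ENSSSCG00000013784 (DNAJB1), ENSSSCG00000009334 (HSPH1), ENSSSCG00000015140 (HSPA8), ENSSSCG00000047932 (HSPA6), ENSSSCG00000039962 (HSPB1) and ENSSSCG00000036724 (CRYAB). They were selected on measured values, namely their ratios between the libraries in stromal cells, so those ratios and the counts made from them are a description and support nothing.

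The cells came from the longissimus dorsi, the long muscle of the back, of piglets of 2 breeds, Yorkshire and the Guangdong small-eared spotted pig (GDSS), which the submitters say differ in intramuscular fat. There was 1 droplet single-cell RNA library per breed, from 1 g of muscle per piglet, after lysis of red blood cells and removal of dead cells with magnetic beads. No treatment or genotype was named, and the sources used here do not give the number of piglets per library, their exact age or their sex. Both sample titles carry the mark P0, whose meaning they do not give. Since each breed gave 1 library, nothing was replicated and nothing was tested: the breed, the animal, the preparation and the library cannot be told apart, and every interval below is a 95% interval for counting error only.

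Heat shock proteins bind unfolded protein. Proteins of the HSP70 family, among them HSPA8 and HSPA6, hold and release a client in a cycle driven by ATP. J-domain proteins such as DNAJB1 bring the client and start the cycle, and HSPH1, of the HSP110 family, releases the nucleotide so that it can begin again. Small heat shock proteins such as HSPB1 and CRYAB hold unfolded protein without ATP and keep it from aggregating. HSPA8 is made in nearly all cells at rest, whereas DNAJB1, HSPH1 and above all HSPA6 are raised by heat shock factor HSF1 after heat or other protein stress. CRYAB and HSPB1 can be induced too, but are also made at rest in muscle, where they protect desmin and the sarcomere.

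The 12286 GDSS barcodes held 42093851 UMIs (counted RNA molecules), the 14695 Yorkshire barcodes held 54300953, and 11122 and 13823 barcodes passed the filters. Cells were sorted into 8 classes by marker genes that include no chaperone, and 9010 GDSS and 9004 Yorkshire cells met the gate of exactly 1 class, where the tenocyte gate took precedence over the stromal gate. They were 7339 and 1736 stromal-like cells, 341 and 4214 satellite-like, 182 and 1444 endothelial-like, 317 and 753 mural-like, 147 and 212 glia-like, 234 and 83 macrophage-like, 52 and 274 myofibre-like and 398 and 288 tenocyte-like cells in GDSS and Yorkshire. The labels call the cells intramuscular vascular stem cells, yet stromal, muscle, vascular, nerve and immune classes were all present. The markers left out of the gates had a higher summed level in their own class than in the whole library for every class. This holds for the sums only, since the glia marker FOXD3 was at 0 in GDSS glia-like cells. The 2 libraries shared 47 barcodes, and 41 of these passed the filters in both. No class was met by 12.9% of GDSS and 26.4% of Yorkshire cells. At the edge of the satellite gate lay 204 GDSS and 1891 Yorkshire cells. These were satellite-like cells with just enough UMIs, together with cells of no class 1 UMI below the gate. In stromal-like cells, markers of lymphocytes and other leukocytes summed to 73.8 CPM (UMIs scaled to a common class total) in GDSS (3 of 6 markers at 0) and 183 in Yorkshire (5 of 6 at 0, so that all of it came from CD79A), and macrophage markers outside the gate to 3.86 and 2.24. Their part in the results was not tested.

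In stromal-like cells, the fibroblasts and fibro-adipogenic progenitors of muscle, all 6 genes had a higher level in the GDSS library, and the co-chaperone DNAJB1 and CRYAB stood furthest apart. Levels are given as CPM of all UMIs summed over the cells of a class. DNAJB1 stood at 5743 CPM (5713 to 5772) in GDSS and 1687 CPM (1657 to 1718) in Yorkshire, a ratio of 3.40 (3.34 to 3.47). HSPH1 stood at 2385 and 919 CPM, a ratio of 2.60 (2.53 to 2.66). The constitutive chaperone HSPA8 stood at 6216 and 2544 CPM, a ratio of 2.44 (2.41 to 2.48), so the gene made at rest differed nearly as much as the inducible HSPH1.

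The strictly inducible HSPA6 differed less, with 417 CPM (409 to 425) in GDSS stromal-like cells, 261 CPM (249 to 273) in Yorkshire and a ratio of 1.60 (1.52 to 1.68). HSPA6 has relatives in the HSP70 family, and how reads were split between them is not known, so its values are uncertain. HSPB1 had the smallest ratio, 1.39 (1.35 to 1.44), from 905 and 648 CPM. CRYAB had the largest, 5.08 (4.70 to 5.51), from 466 CPM (458 to 474) and 91.7 CPM (84.8 to 99.0), where free RNA could give up to 10.9 and 21.7 CPM. This bound, here and below, assumes that free RNA has the make-up of all kept cells of a library. Myofibre markers outside the gate stood at 22.4 and 19.2 CPM in stromal-like cells, against 61.8 and 128 CPM in the whole libraries. That is a larger share than the bound takes, so it may be too low for CRYAB, which is also made in muscle.

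All but HSPB1, which makes 5 of 6, had a GDSS level at least 1.5 times the Yorkshire level, as did 5.84% of the 9773 genes measured there (571 genes). None of the 6 had the reverse, which 18.4% of genes did (1799 genes). HSPA6 fell short with equal weight per state (log2 ratio 0.43), and HSPB1 passed with TMM factors (0.65), median-of-ratios factors (0.66) and thinning (0.62). A gene counted as measured in a class with at least 100 UMIs over both libraries. The median log2 ratio of the 6 genes was 1.33 and that of all measured genes −0.18. With TMM scaling, which centres the bulk of genes, the background was 950 genes (9.72%) higher in GDSS and 1048 (10.7%) higher in Yorkshire, the median of all genes was −0.00 and that of the 6 genes 1.51. Cells had a median of 3052 UMIs in GDSS and 3628 in Yorkshire, with median mitochondrial shares of 3.92% and 3.73%. The part of depth and cell quality in these ratios was not tested beyond the thinning and mitochondrial alternatives given at the end.

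Tenocyte-like cells, the tendon fibroblasts, had ratios of the same direction as stromal-like cells for each gene. These cells also carried the stromal markers, with a median of 64 stromal gate UMIs in GDSS and 55 in Yorkshire, and were set apart from stromal-like cells by the tenocyte gate alone. DNAJB1 stood at 2478 and 1111 CPM there (ratio 2.23, 2.12 to 2.34), HSPH1 at 1130 and 409 CPM (2.76, 2.55 to 2.99) and CRYAB at 1049 and 394 CPM (2.66, 2.45 to 2.89). HSPA8 stood at 3286 and 1646 CPM (interval of the ratio 1.92 to 2.08), and HSPA6 was 1.74-fold and HSPB1 1.34-fold higher in GDSS. Past 1.5-fold were 5 of 6 genes, all but HSPB1, against 11.4% of genes in this direction and 9.47% in the other. Whether tenocyte-like cells were among the stromal cells whose ratios served for the selection is not known. This count is therefore a description too.

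In satellite-like cells, which stand for the muscle stem cells, the values took another course. DNAJB1 was level between the libraries, at 2464 CPM (2368 to 2563) in GDSS and 2460 CPM (2435 to 2486) in Yorkshire. HSPH1 was higher in Yorkshire, at 672 CPM (623 to 725) and 1325 CPM (1307 to 1344), which is 1.97-fold (1.83 to 2.13). HSPA8 was 1.44-fold (1.39 to 1.48) higher in Yorkshire, from 3494 and 5013 CPM, and CRYAB 1.47-fold (1.38 to 1.56) higher in GDSS, from 1160 and 789 CPM. Past 1.5-fold were 0 of 6 genes in favour of GDSS, where 12.6% of genes were, and 1 gene, HSPH1, in favour of Yorkshire, where 21.9% were. The count for GDSS was not stable. Under other processing settings the log2 ratio ranged from 0.20 to 0.64 for CRYAB and from 0.18 to 0.63 for HSPA6, past 1.5-fold at the upper ends. The median log2 ratio of the 6 genes was 0.13, against −0.08 for all genes measured in the class.

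Macrophage-like cells went the other way for 4 of the 5 genes that could be measured. DNAJB1 stood at 585 CPM (549 to 623) in GDSS and 1162 CPM (1083 to 1245) in Yorkshire, 1.99-fold (1.81 to 2.18) higher in Yorkshire. HSPH1 was 1.82-fold (1.68 to 1.98) and HSPA6 3.21-fold (2.73 to 3.78) higher in Yorkshire, where the HSPA6 level was 503 CPM against 157 CPM. HSPA8 was 1.45-fold (1.38 to 1.52) higher in Yorkshire, and HSPB1 1.24-fold (1.15 to 1.34) higher in GDSS. The counts past 1.5-fold were 0 for GDSS and 3 for Yorkshire, beside 11.9% and 13.5% of genes. Of the 7 immediate early genes measured in these cells, 6 also passed 1.5-fold in favour of Yorkshire (FOS, FOSB, ATF3, EGR1, DUSP1 and ZFP36). The Yorkshire class held only 83 cells, and the part of other cell stress in the chaperone ratios was not tested.

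In endothelial-like cells the genes did not move together. HSPA6 stood at 281 CPM (242 to 325) in GDSS and 647 CPM (628 to 667) in Yorkshire, 2.30-fold (1.98 to 2.68) higher in Yorkshire, while DNAJB1 was 1.43-fold (1.36 to 1.51) higher in GDSS. HSPH1 stood at 859 and 868 CPM, with a ratio of 0.99 (0.91 to 1.08), and HSPB1 at 2712 and 2535 CPM. CRYAB had its largest class ratio here, 7.05 (6.04 to 8.22), from 440 and 62.4 CPM, where free RNA could give up to 16.6 and 26.4 CPM. Myofibre markers outside the gate stood at 18.5 and 11.5 CPM in these cells, against 61.8 and 128 CPM in the whole libraries, so this bound too may be too low. Of the 182 GDSS cells, 7 held 76.1% of the GDSS CRYAB UMIs. In those 7 cells the mural gate markers summed to 582 CPM, against 230 CPM in the cells with no CRYAB UMI, and the glia gate markers to 30.6 against 9.69 CPM. Both of those classes are rich in CRYAB, and their part in the ratio was not tested. Past 1.5-fold were 1 gene for GDSS, CRYAB, and 1 for Yorkshire, HSPA6, beside 7.86% and 16.3% of genes.

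Mural-like cells stand for vessel-wall smooth muscle and pericytes. There 3 of 6 genes passed 1.5-fold in favour of GDSS, beside 7.11% of genes, and 0 in favour of Yorkshire, beside 15.9%. They were HSPB1 (1340 and 744 CPM, 1.80-fold, 1.67 to 1.94), DNAJB1 (930 and 525 CPM, 1.77-fold, 1.62 to 1.94) and CRYAB (1537 and 885 CPM, 1.74-fold, 1.62 to 1.86). Mural-like cells were the class where HSPB1 had its largest ratio. In glia-like and myofibre-like cells 0 of 6 genes passed 1.5-fold in either direction, beside 10.2% and 20.1% of genes in glia-like and 9.36% and 14.8% in myofibre-like cells. DNAJB1 stood at 3146 CPM (2966 to 3334) in GDSS and 3584 CPM (3440 to 3732) in Yorkshire glia-like cells, and CRYAB at 3568 CPM (3203 to 3964) and 3669 CPM (3519 to 3822) in myofibre-like cells.

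**Figure D1:**
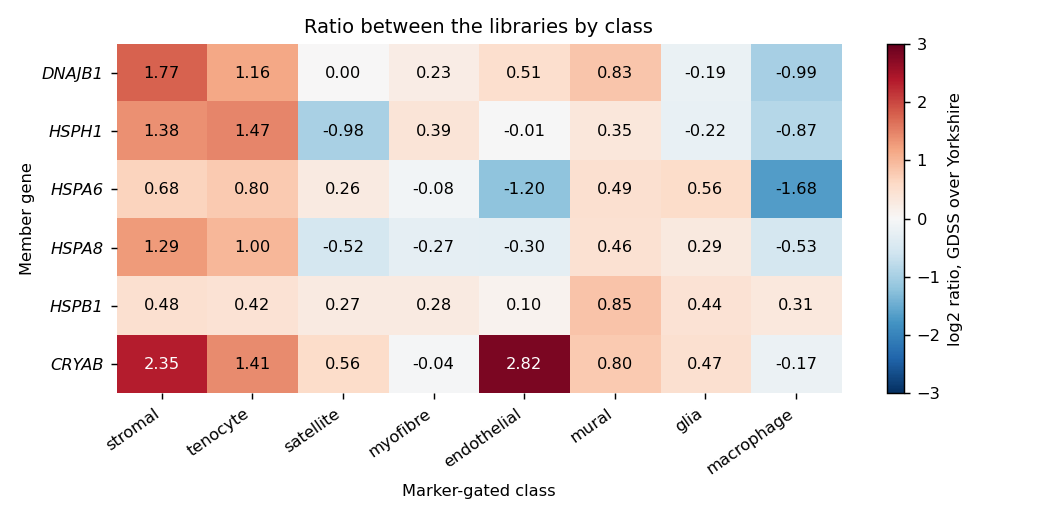
Log2 ratio of the level in GDSS over that in Yorkshire for each gene (rows) in each marker-gated class (columns), 1 library per breed. Stromal-like and tenocyte-like cells are above 0 for all 6 genes, from 0.42 to 2.35, and macrophage-like cells are below 0 for 4 of the 5 genes measured there, with HSPA6 at −1.68. CRYAB, also drawn in that column, had too few UMIs there to be measured.

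Summed over all kept cells, whatever their class, the ratios were 2.25 for DNAJB1, 1.80 for HSPH1, 1.34 for HSPA8, 1.22 for HSPA6, 0.97 for HSPB1 and 1.07 for CRYAB. The CRYAB total was thus nearly level, at 705 CPM (697 to 713) in GDSS and 659 CPM (652 to 666) in Yorkshire, although its ratio was 5.08 within stromal-like cells. Those cells were 66.0% of the GDSS and 12.6% of the Yorkshire cells and had low CRYAB in both libraries. Cells that met no gate had 1582 CPM of CRYAB in GDSS and 843 CPM in Yorkshire, and 4436 and 2905 CPM of DNAJB1.

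CRYAB set the classes apart far more than the other 5 genes did. Its highest class level was 243-fold its lowest in GDSS and 156-fold in Yorkshire, and the classes came in the same order in both libraries: glia, myofibre, mural, satellite, tenocyte, stromal, endothelial, macrophage. In glia-like cells, gated on Schwann cell genes such as SOX10, it stood at 6519 CPM (6258 to 6788) in GDSS and 4692 CPM (4528 to 4861) in Yorkshire. The macrophage-like levels were 26.8 CPM (19.5 to 35.8) and 30.2 CPM (18.7 to 46.1), where free RNA from other cells could give up to 7.81 and 21.8 CPM. In Yorkshire the macrophage level was within counting error of that bound, so it cannot be told from background. Only the stromal-like and endothelial-like levels in GDSS had overlapping intervals, and no neighbours in the Yorkshire order did.

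HSPB1 kept its first 5 classes in the same order in both libraries: myofibre, endothelial, glia, macrophage, mural. It stood at 4553 CPM (4139 to 4997) in GDSS and 3756 CPM (3605 to 3911) in Yorkshire myofibre-like cells. Endothelial-like cells followed with 2712 and 2535 CPM, and its lowest class was tenocyte-like, at 809 and 603 CPM. Satellite-like and tenocyte-like levels overlapped in GDSS, and in Yorkshire satellite-like overlapped with stromal-like and stromal-like with tenocyte-like.

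The chaperones of the HSP70 cycle had smaller spans across classes than CRYAB, and orders that differed between libraries. Against HSPB1, with spans of 5.63-fold in GDSS and 6.23-fold in Yorkshire, some were wider and some narrower. DNAJB1 was highest in stromal-like cells in GDSS and in glia-like cells (3584 CPM) in Yorkshire, where satellite-like and endothelial-like cells also lay above stromal-like cells. Its highest class was 9.82-fold its lowest in GDSS and 6.82-fold in Yorkshire. HSPH1 likewise led in stromal-like cells in GDSS and in glia-like cells in Yorkshire, with spans of 5.38-fold and 6.14-fold. HSPA8, with the smallest spans at 3.28-fold and 3.64-fold, was highest in stromal-like cells in GDSS and in satellite-like cells in Yorkshire. HSPA6 was highest in glia-like cells in GDSS (440 CPM, 374 to 514), where its interval overlapped that of stromal-like cells, and in endothelial-like cells in Yorkshire. Mural-like cells were the lowest class for HSPH1, HSPA6 and HSPA8 in both libraries and for DNAJB1 in Yorkshire, and macrophage-like cells were the lowest for DNAJB1 in GDSS. In myofibre-like cells the bound on free RNA was high, up to 1236 of the 1692 CPM of DNAJB1 in GDSS and 443 of 1442 CPM in Yorkshire, so low levels there are poorly resolved.

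**Figure D2:**
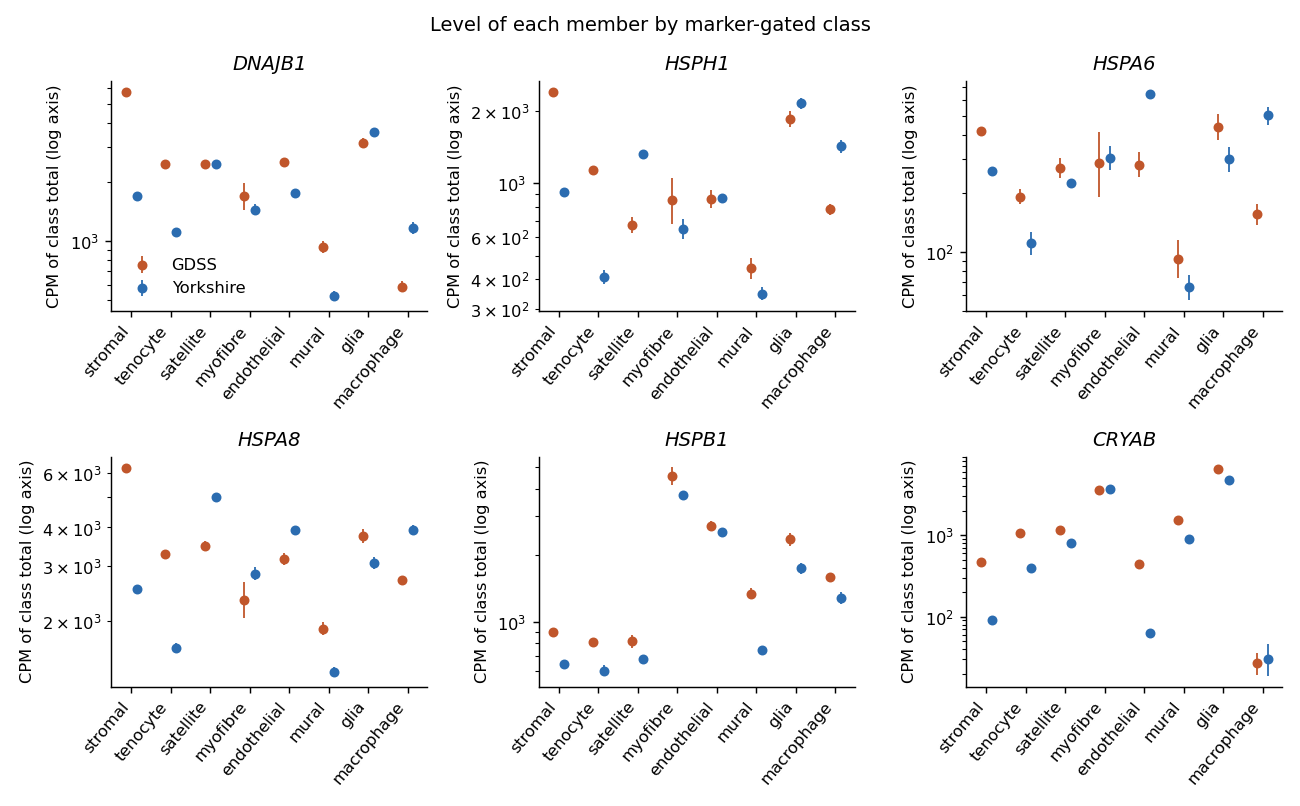
Level of each gene in CPM of the class total (log axis) by marker-gated class, GDSS in red-brown and Yorkshire in blue, with bars for the 95% Poisson interval of the summed counts. CRYAB runs from near 30 CPM in macrophage-like to 6519 CPM in glia-like cells in the same order in both libraries, while DNAJB1, HSPH1 and HSPA8 lead in stromal-like cells in GDSS but not in Yorkshire.

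The stress-inducible copies of HSP70 gave a further comparison within the inducible genes. HSP70.2, which the reference table lists under the names HSPA1A and HSPA1B, had 3281 CPM in GDSS and 1309 CPM in Yorkshire stromal-like cells, a ratio of 2.51 (2.45 to 2.56). In glia-like cells it stood at 13605 CPM (13227 to 13991) and 16402 CPM (16093 to 16715), its highest class in both libraries, and in macrophage-like cells it was 1.54-fold (1.47 to 1.60) higher in Yorkshire. HSP70.2 and HSPA6 are related genes whose sequences were not compared here, so whether their counts hold reads of each other is not known.

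Inducible chaperone RNA was also set against constitutive chaperone RNA within each library, a ratio that does not depend on the class total. The inducible side held 5 of the genes described here and the listed inducible chaperones, and the constitutive side HSPA8 and the listed constitutive ones. In stromal-like cells there were 2.66 inducible UMIs per constitutive UMI (2.65 to 2.68) in GDSS and 2.19 (2.17 to 2.22) in Yorkshire, 1.21 times as many in GDSS. The inducible sum stood at 22113 and 11124 CPM and the constitutive sum at 8300 and 5070 CPM, so both sums were higher in GDSS. The 5 genes described here on the inducible side were selected on their stromal ratios and gave 9916 and 3607 CPM of the inducible sum. HSPA8, selected in the same way, alone gave 6216 and 2544 CPM of the constitutive sum. The direction of that sum therefore rests on HSPA8, and the quotient depends on it. The listed constitutive chaperones had a median log2 ratio of −0.27. With the 6 genes alone the ratio was 1.60 and 1.42, 1.13 times as many in GDSS.

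Over the full lists, glia-like cells had the most inducible RNA for their constitutive RNA in both libraries, with 5.19 (4.99 to 5.41) in GDSS and 5.39 (5.23 to 5.56) in Yorkshire. Myofibre-like cells followed with 4.70 (4.28 to 5.16) and 3.95 (3.81 to 4.09), and endothelial-like cells had 3.71 and 3.01. Satellite-like cells had 2.64 and 2.44, and mural-like cells 2.83 and 2.33. Macrophage-like and glia-like cells had a lower value in GDSS, 2.75 (2.68 to 2.82) against 3.07 (2.97 to 3.17) in macrophage-like cells. With the 6 genes alone the macrophage-like direction turned, at 1.16 (1.11 to 1.21) in GDSS and 1.12 (1.07 to 1.18) in Yorkshire, with overlapping intervals. The first rank in GDSS turned too, with myofibre-like cells at 4.66 (4.04 to 5.40) and glia-like cells at 3.81 (3.59 to 4.05). Glia-like and myofibre-like cells stood above the other 6 classes in each library by both versions. Both versions count CRYAB and HSPB1 as inducible, though these are also made at rest in muscle. Of the inducible UMIs of the 6 genes in myofibre-like cells, they gave 348 and 444 of 1068 in GDSS. In Yorkshire they gave 2277 and 2331 of 6094. In glia-like cells CRYAB gave 2356 of 5171 and 3073 of 8162. The order of classes without these genes is not given here, so the ranks may reflect their resting level.

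Among the other chaperone lists, the stromal-like ratios were uneven. Each count below stands beside the same 5.84% of all measured stromal genes in favour of GDSS and 18.4% in favour of Yorkshire. Of 14 measured inducible chaperones 4 passed 1.5-fold in favour of GDSS and 0 in favour of Yorkshire: HSP70.2, the collagen chaperone SERPINH1 (745 and 409 CPM, 1.82-fold), HSP90AA1, the inducible HSP90 (4564 and 2957 CPM, 1.54-fold), and DNAJA1, another J-domain co-chaperone (1915 and 1243 CPM, 1.54-fold). Their list had a median log2 ratio of 0.07. Of 12 constitutive chaperones 0 passed in favour of GDSS and 1 in favour of Yorkshire, the HSP70-binding ST13 (238 and 406 CPM, log2 ratio −0.77), and the list median was −0.27. The listed constitutive chaperones ran from −0.77 to 0.41, against 1.29 for HSPA8. Since HSPA8 was selected on this ratio and they were not, its place outside their range is a description only.

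Chaperones of other compartments were read in the same way. Of 6 measured chaperonin subunits, which fold actin and tubulin, 0 passed 1.5-fold in either direction, and the list median was −0.22. Of 7 mitochondrial chaperones 0 passed in favour of GDSS and 1 in favour of Yorkshire, DNAJA3 at 9.67 and 17.2 CPM, with a list median of −0.15. The single Yorkshire calls of the constitutive and mitochondrial lists are smaller shares than that background. Of 16 measured endoplasmic reticulum chaperones and stress genes 4 passed in favour of GDSS and 0 in favour of Yorkshire, and the list median was 0.43: the calcium-binding chaperone CALR (529.5 and 212 CPM, 2.50-fold), the HSP70 of the reticulum HSPA5 (523 and 229 CPM, 2.28-fold), the disulfide isomerase PDIA6 (1.54-fold) and the stress transcription factor ATF4 (1.53-fold).

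The 3 measured genes of the heat shock factor list had log2 ratios of 0.16 (HSF1), 0.01 (HSF2) and 0.11 (HSBP1), and none passed 1.5-fold. Of the 3 other small heat shock protein genes measured, HSPB6 stood at 225 and 235 CPM, HSPB8 at 12.1 and 12.6 CPM and HSPB3 at 3.90 and 2.66 CPM, a ratio with an interval of 0.89 to 2.53. None of the 3 passed 1.5-fold, though HSPB3 is too sparse to place. UBB, a polyubiquitin gene that tags unfolded protein for removal, stood at 22225 and 7998 CPM, 2.78-fold (2.75 to 2.80) higher in GDSS. Of 8 measured immediate early genes, which respond within minutes to handling and growth factors, 4 passed in favour of GDSS and 0 in favour of Yorkshire (ZFP36 2.28-fold, EGR1 2.03-fold, DUSP1 1.92-fold and IER3 1.59-fold). Their part in the chaperone ratios was not tested.

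**Figure D3:**
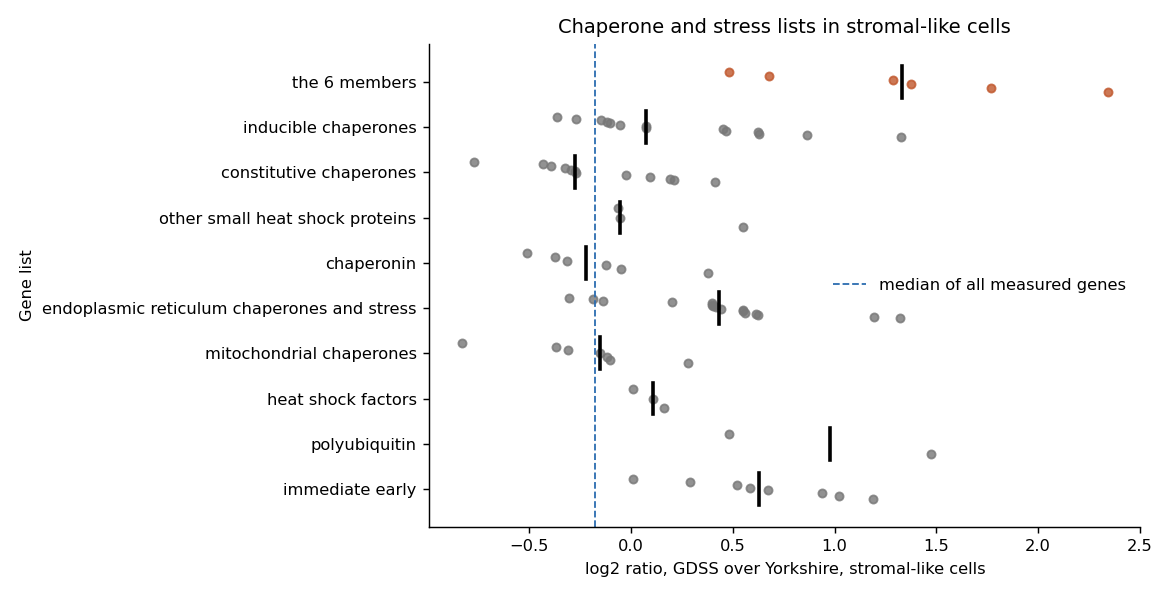
Log2 ratio of GDSS over Yorkshire in stromal-like cells for each measured gene (points) of each list, with the list median as a black bar and the median of all measured genes, −0.18, as a dashed line. The 6 genes run from 0.48 to 2.35, while the constitutive list, at a median of −0.27, and the chaperonin list, at −0.22, lie near the dashed line.

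Within stromal-like cells the genes differed in how evenly they were spread over cells. For this, each cell was thinned to 1500 UMIs, which left 6909 GDSS and 1670 Yorkshire cells and left out 430 and 66 shallower ones. HSPA8 and DNAJB1 were found in most cells. HSPA8 had a UMI in 93.4% (92.8 to 94.0) of GDSS and 74.3% (72.1 to 76.3) of Yorkshire cells, with medians of 7 and 2 UMIs per cell. DNAJB1 had a UMI in 89.8% (89.1 to 90.5) and 56.5% (54.0 to 58.9) of cells, with a median of 6 UMIs in GDSS and 1 in Yorkshire. Its 90% quantile was 22 UMIs per cell in GDSS and 7 in Yorkshire.

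HSPH1 had a UMI in 73.5% and 44.5% of thinned cells and HSPB1 in 61.1% and 50.7%. HSPA6 was sparse, with a UMI in 22.8% (21.8 to 23.8) of GDSS and 16.8% (15.0 to 18.6) of Yorkshire cells, yet single cells reached 87 and 24 UMIs. CRYAB was the sparsest, in 12.9% (12.1 to 13.7) and 5.75% (4.68 to 6.97) of cells, with up to 53 and 12 UMIs in a cell. Without thinning, the shares were 18.0% and 12.8% for CRYAB, 31.8% and 26.8% for HSPA6 and 93.4% and 69.5% for DNAJB1. In macrophage-like cells, the class with the lowest CRYAB level, 3.03% (1.23 to 6.14) of GDSS and 3.61% (0.75 to 10.2) of Yorkshire thinned cells had a CRYAB UMI. Unthinned, those cells had medians of 6389 and 7847 UMIs. Their unthinned shares were 6.84% and 15.7%. The Yorkshire stromal-like share lies within the wide interval from those 83 Yorkshire cells, so the share alone cannot be told from background. The Yorkshire stromal-like level of 91.7 CPM was above the free RNA bound of 21.7 CPM. That bound may be too low for CRYAB, as said above, so the level does not settle the question either.

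The spread was put on one scale as the variance beyond counting noise divided by the squared mean, over cells of 1 library. In GDSS stromal-like cells it was 21.5 for CRYAB, 10.5 for HSPA6, 1.43 for HSPH1, 1.18 for HSPB1, 0.89 for DNAJB1 and 0.69 for HSPA8, where the median of 1762 genes with a mean of at least 0.1 UMIs was 0.33. In Yorkshire it was 25.8 for CRYAB, 10.0 for HSPA6, 2.68 for DNAJB1, 2.58 for HSPH1, 1.10 for HSPA8 and 0.87 for HSPB1, with a median of 0.37 over 1939 genes. CRYAB and HSPA6 exceeded at least 99.2% of those genes in each library. DNAJB1, HSPH1 and HSPA8 were thus less uneven in GDSS, where their level was higher, and HSPA6 had about the same unevenness in both.

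The 10% of GDSS stromal-like cells with the most UMIs of a gene held 94.9% of the CRYAB UMIs, 78.3% of HSPA6, 41.1% of HSPB1, 40.5% of HSPH1, 32.7% of DNAJB1 and 30.0% of HSPA8. In Yorkshire the same share was 82.5% for HSPA6, 51.7% for DNAJB1 and 37.3% for HSPA8, and 100% for CRYAB, which fewer than 10% of cells held at all. For HSP70.2 it was 49.9% and 58.1%. The inducible HSP70 genes were thus concentrated in fewer cells than the constitutive HSPA8 in each library.

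**Figure D4:**
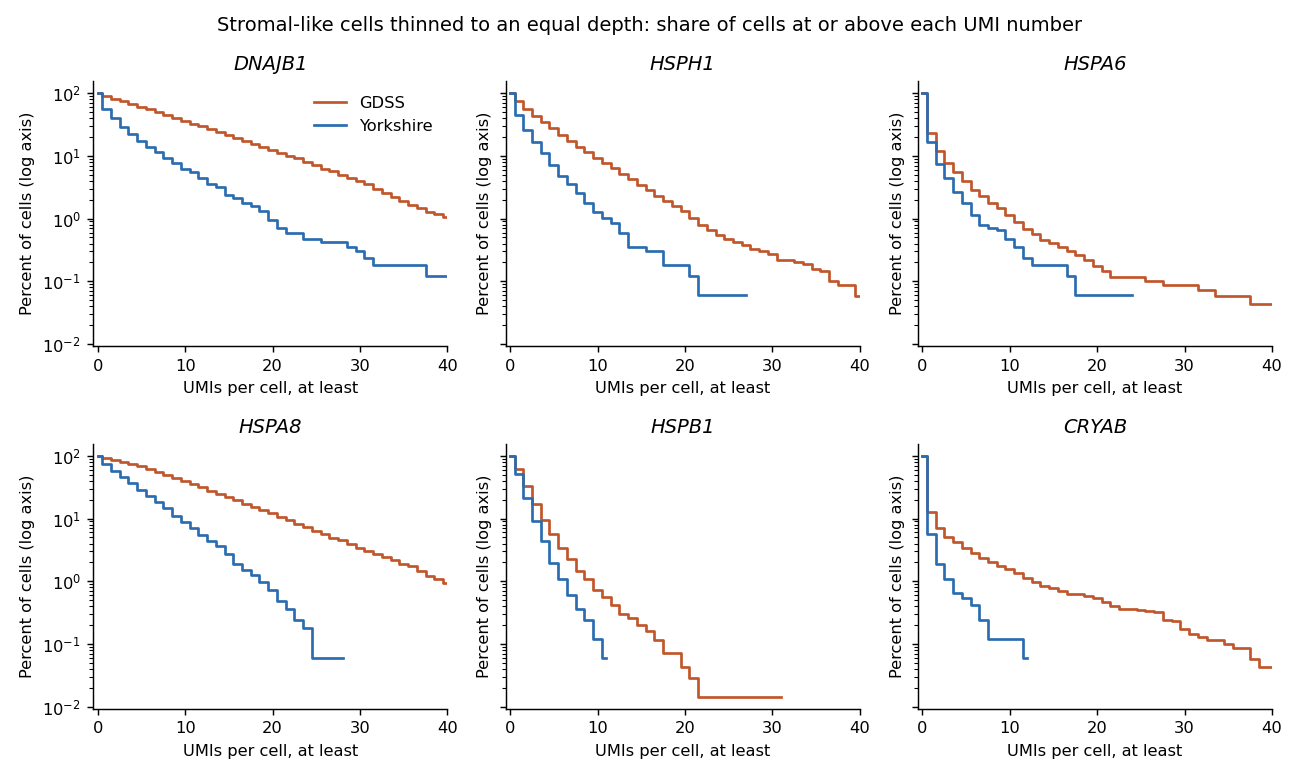
Share of stromal-like cells (percent, log axis) with at least the given number of UMIs of each gene after thinning every cell to 1500 UMIs, GDSS in red-brown and Yorkshire in blue, shown up to 40 UMIs. DNAJB1 and HSPA8 fall off slowly in GDSS and faster in Yorkshire, while CRYAB drops at once to 12.9% and 5.75% of cells at 1 UMI and then keeps a long tail in GDSS.

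The CRYAB-rich stromal-like cells were few but held most of its RNA. In GDSS, 458 cells (6.24%) with 5 or more CRYAB UMIs held 88.6% of the UMIs, and 6021 cells (82.0%) had none. In Yorkshire 24 cells (1.38%) held 62.7%. The bins were set after the data were seen and use unthinned counts, so deeper cells enter the upper bin more easily: the median depth was 4678.5 UMIs in the GDSS cells with 5 or more and 2888 in those with none.

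The rich cells were also looked at for genes of other classes and for the other chaperones. In GDSS the satellite gate markers summed to 48.0 CPM in the cells with 5 or more CRYAB UMIs and 64.2 CPM in those with none, the mural markers to 482 and 470 CPM, the myofibre markers to 93.5 and 103 CPM, and the glia markers to 25.4 and 7.23 CPM. In the 24 Yorkshire cells the glia markers summed to 136 CPM against 24.5 CPM, the myofibre markers to 361 against 176 CPM and the satellite markers to 225 against 104 CPM, and the part of these classes in the CRYAB level was not tested. DNAJB1 was nearly level over the GDSS bins, at 5738 CPM in the rich cells and 5826 CPM in those with none, while HSPH1 stood at 3216 CPM in the rich cells and 2303 CPM in those with none, and HSPB1 at 1239 and 863 CPM. In the 24 Yorkshire cells DNAJB1 stood at 4982 CPM against 1617 CPM.

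Across single stromal-like cells DNAJB1, HSPH1 and HSPA8 went together. Over 6909 GDSS and 1670 Yorkshire thinned cells, Pearson's r of log counts was 0.59 and 0.58 for DNAJB1 with HSPA8, 0.52 and 0.56 for HSPH1 with HSPA8, and 0.43 and 0.50 for DNAJB1 with HSPH1. DNAJB1 with UBB gave 0.60 and 0.57, and DNAJB1 with EGR1 0.46 and 0.40. For CRYAB, with no UMI in most cells, r was at most 0.15 with the genes computed, which does not show that it varied apart from them. Cells of 1 library share its preparation and are not replicates, and weak values in sparse counts such as those of CRYAB and HSPA6 show little.

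The stromal-like cells were next divided into 9 states by small marker sets that include no chaperone, and a cell could meet several (1541 GDSS and 372 Yorkshire cells did). DNAJB1 was higher in GDSS in all 9 states, with ratios from 2.15 (2.03 to 2.28) in the cells with the chemokine genes CCL2 and CXCL2 to 5.19 (4.63 to 5.83) in those with IRF8 and PBK, of which Yorkshire had 36. In GDSS its level ran from 4177 CPM (4116 to 4238) in the CCL2 and CXCL2 cells to 7456 CPM (7359 to 7554) in the IRF8 and PBK cells, with 7009 CPM in the KANK3 and ICAM1 cells. In Yorkshire it ran from 1437 CPM (1280 to 1608) in the IRF8 and PBK cells to 2409 CPM (2284 to 2539) in the KANK3 and ICAM1 cells. The state with the highest GDSS level thus had the lowest Yorkshire level, though its Yorkshire interval overlapped that of the CLDN1 and ITGB4 cells (1439 CPM).

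HSPA8 in GDSS ran from 4653 CPM in the HHIP and ART4 cells to 7731 CPM in the IRF8 and PBK cells. Its ratio, like that of DNAJB1, was smallest in the CCL2 and CXCL2 cells, at 1.70 (1.63 to 1.78), and largest in the IRF8 and PBK cells, at 3.11 (2.86 to 3.40). HSPH1 had ratios from 1.53 in the CLDN1 and ITGB4 cells to 3.04 in the IRF8 and PBK cells. HSPA6 was the gene whose direction was not the same in every state. In the CCL2 and CXCL2 cells it stood at 277 CPM (261 to 293) in GDSS and 328 CPM (285 to 375) in Yorkshire, a ratio of 0.85 (0.73 to 0.98), and in the other 8 states the ratio ran from 1.09 to 1.70. Cells of no state, 40.7% of GDSS and 36.9% of Yorkshire stromal-like cells, had a larger HSPA6 ratio of 2.03 (1.84 to 2.24). HSPB1 ratios ran from 1.03 to 1.52.

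CRYAB in GDSS was highest in the cells with PI16, a gene of fibroblast progenitors, and CCL26, at 860 CPM (838 to 882). The THBS4 and KERA cells had 656 CPM (605 to 710), the HHIP and ART4 cells 605 CPM (565 to 647) and the CCL2 and CXCL2 cells 590 CPM (567 to 613), and the other 5 states lay between 318 and 379 CPM. In Yorkshire the MME and FMO2 state stood at 135 CPM (116 to 156), overlapping the FMO1 and AOX1, THBS4 and KERA, and KANK3 and ICAM1 states, and the PI16 and CCL26 cells had 69.6 CPM (56.9 to 84.3). The ratio was therefore 12.4 (10.2 to 15.1) in PI16 and CCL26 cells but 2.42 (2.06 to 2.85) in MME and FMO2 cells. In the HHIP and ART4 cells (15 UMIs) and the IRF8 and PBK cells (6 UMIs) the Yorkshire levels, 37.5 CPM (20.97 to 61.8) and 28.4 CPM (10.4 to 61.7), could not be told from the free RNA bound of 21.7 CPM, so their ratios are not given.

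**Figure D5:**
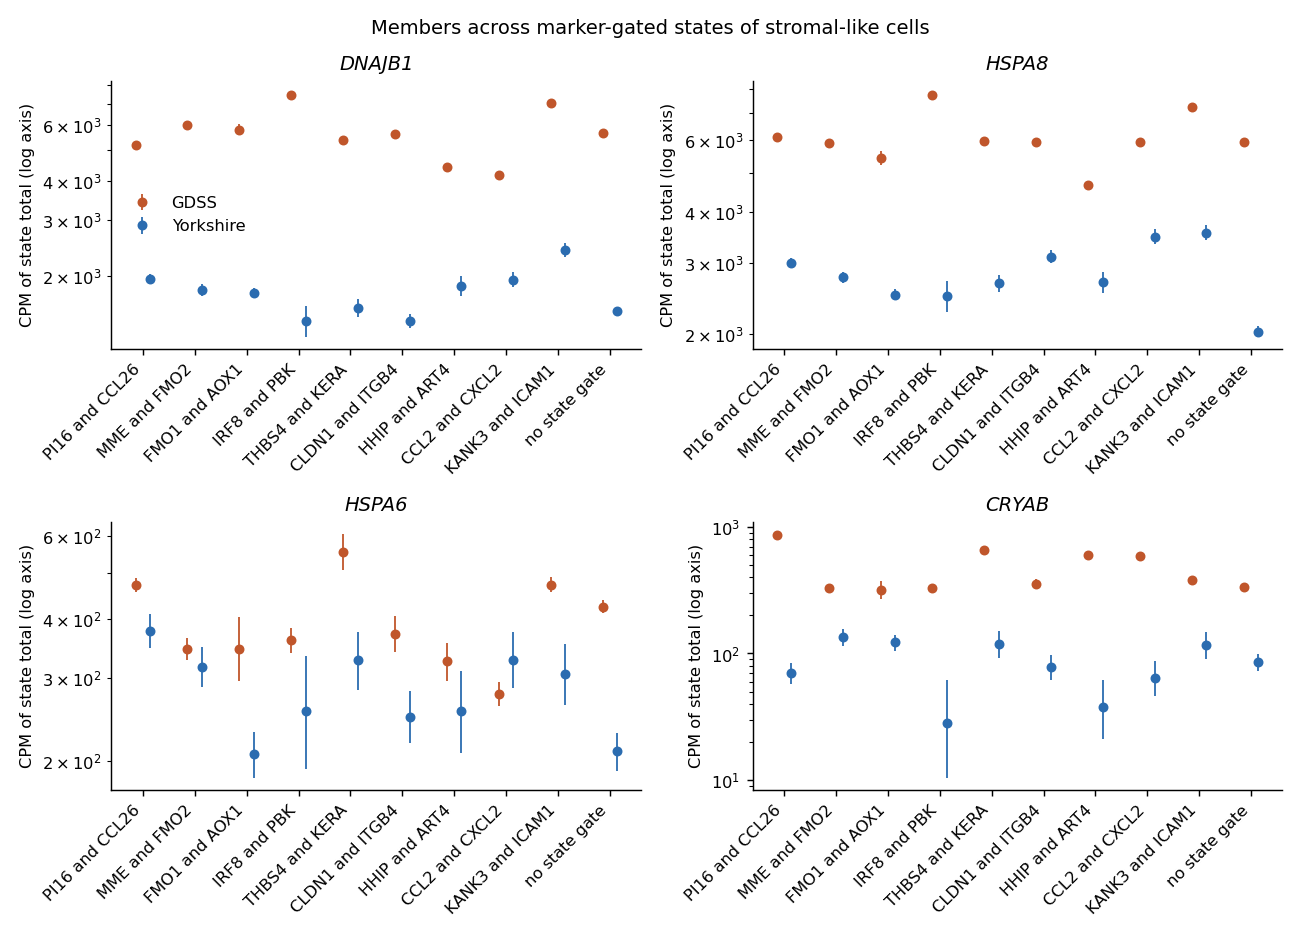
Level of DNAJB1, HSPA8, HSPA6 and CRYAB in CPM of the state total (log axis) in 9 marker-gated, overlapping states of stromal-like cells and in cells of no state, GDSS in red-brown and Yorkshire in blue, with bars for the 95% Poisson interval. GDSS is above Yorkshire for DNAJB1, HSPA8 and CRYAB in each state, and HSPA6 is the exception in the CCL2 and CXCL2 cells, at 277 and 328 CPM.

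Subsets of other classes, defined after the data were seen, showed where CRYAB differed within a class. In mural-like cells with 2 or more UMIs of MYH11, the smooth muscle myosin gene, CRYAB stood at 2666 CPM (2478 to 2866) in GDSS and 1158 CPM (1103 to 1216) in Yorkshire. In those with the pericyte gene RGS5 and no MYH11 UMI it stood at 473 CPM (401 to 553) and 504 CPM (449 to 564). The library ratio was 2.30 (2.11 to 2.51) in the former and 0.94 (0.77 to 1.14) in the latter. HSPB1 did not follow this division: its ratio was 2.03 in MYH11 cells and 2.07 in RGS5 cells.

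In satellite-like cells CRYAB was nearly the same in those with a UMI of MYOD1, a gene of activated satellite cells, and in those with PAX7 and no MYOD1: 1283 and 1278 CPM in GDSS and 824 and 768 CPM in Yorkshire. HSPH1 was lower in GDSS in both subsets, with ratios of 0.55 (0.48 to 0.63) and 0.46 (0.40 to 0.53).

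Lastly, the genes whose level followed DNAJB1 and CRYAB most closely across classes were ranked, over 16 points (8 classes in each of the 2 libraries) and 7866 genes, by Pearson's r of log2(CPM + 1). The 8 points of a library share its preparation, and the values are a description. For DNAJB1 they were TSPAN4 (0.83), the unfolded protein response factor XBP1 (0.82), HSPH1 (0.78), JDP2 (0.76) and PDPN (0.75), and its r with HSPA8 was also 0.75, with HSPA6 0.63, with CRYAB 0.38 and with HSPB1 0.07. For CRYAB they included SNRNP25 (0.91), the muscle cofilin CFL2 (0.91), SMIM7 (0.91) and ZNF146 (0.89), and no other member of the 6 exceeded 0.38.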

How the data were processed

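The authors deposited raw UMI counts of each gene in each barcode. Per the submitters' processing notes Cell Ranger was used, and R 3.5.2 is listed there, its role unstated. Per the file headers the matrices came from software version 3.1.0. For build and annotation, both are not given in the sources used here. Of 21301 features, 14846 carried a symbol and 687 were named from reference tables.

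Barcodes with at least 500 genes and at most 10% mitochondrial UMIs were kept. A cell entered a class when it met only that class's gate of at least 5 UMIs from at least 3 markers (satellite: 3 UMIs from 2). A cell that met the tenocyte and the stromal gate counted as tenocyte-like, and cells of any other combination of gates were left out as possible doublets. Scrublet's automatic threshold marked 1 GDSS and 0 Yorkshire barcodes and was taken not to have worked, so a score of at least 0.3 served only as an alternative. Raw counts were summed per class and library, as CPM with exact Poisson intervals, ratios with exact conditional binomial intervals and shares with Clopper-Pearson intervals, at 95%. The bound on free RNA is the lowest upper limit given by markers of other classes, and assumes that free RNA has the make-up of all kept cells. No test was possible with 1 library per breed. UMI depth sets the counting precision. In counts simulated with counting noise alone from the stromal-like sums, the intervals held 95.8% of true ratios over 9679 genes. This checks the calculation only. The simulation has no spread between cells, which was large for CRYAB and HSPA6, and the intervals do not cover that spread.

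The members and lists were chosen with earlier results of these data known. Besides the 6 genes, those named are up to 4 of each list with the largest absolute log2 ratio in stromal-like cells and the 5 most like DNAJB1 and CRYAB; some genes that this rule names are not reported here. Genes named otherwise (HSP70.2 and UBB in other classes, the macrophage immediate early genes), the gate thresholds, the match of HSPA1A and HSPA1B to HSP70.2, the free RNA markers, the subsets and the CRYAB bins were chosen after values were seen. Listed genes with no matching symbol, such as CRYAA, HSPB2, HSPB7 and JUN, were not used here. Alternatives changed scaling, filters, gates, depth, doublets and state weights. Tools were Python 3.11.15, numpy 2.4.6, scipy 1.17.1, pandas 2.3.3, scanpy 1.11.5, matplotlib 3.10.9 and R 4.3.3 with edgeR 4.0.16, used for TMM factors only.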

Additional observations from a re-analysis of the deposited data

Results flagged for a closer look

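In 5 cases a gene was at least 1.5-fold apart in 1 class in the opposite direction to its difference in stromal-like cells. As ratios of GDSS over Yorkshire they were 0.503 for DNAJB1 in macrophage-like cells, 0.507 for HSPH1 in satellite-like cells, 0.549 for HSPH1 in macrophage-like cells, 0.435 for HSPA6 in endothelial-like cells and 0.311 for HSPA6 in macrophage-like cells. With 1 library per breed these differences between classes were not tested.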

How the results depend on the processing

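No paired analysis was possible because each breed had 1 library. The median log2 ratio of the 6 genes in stromal-like cells (1.33) was 1.51 with TMM factors, 1.51 with median-of-ratios factors, 1.23 with at most 5% mitochondrial UMIs, 1.49 with cells thinned to 1500 UMIs, 1.09 with equal weight per state and, an alternative chosen after seeing the data, 1.38 without the CCL2 and CXCL2 cells. Between 4 and 6 genes then passed 1.5-fold. The inducible to constitutive quotient of GDSS over Yorkshire (1.21) was 1.13 with the 6 genes alone and 1.23 without the CCL2 and CXCL2 cells.

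The stromal background counts of 571 genes higher in GDSS and 1799 in Yorkshire became 960 and 2869 with at least 20 UMIs per gene, 305 and 708 with at least 500, and 950 and 1048 with TMM. No direction past 1.5-fold turned among the stromal-like, satellite-like and endothelial-like ratios of the 6 genes, and the satellite-like and endothelial-like medians ranged from 0.08 to 0.21 and −0.01 to 0.10. The CRYAB log2 ratio ranged from 2.14 to 2.52 in stromal-like and 2.20 to 3.04 in endothelial-like cells. Among the values of single genes under these alternatives and other thinning depths, 72 moved beyond their interval (for shares held by the top cells, beyond a set margin) and 132 did not. Among the medians, the quotient and the counts of genes, 14 values moved beyond their interval (for counts, beyond a set margin) and 36 did not. Depth limits HSPA6 and CRYAB most, since most cells hold no UMI of either.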
